A study of Mus musculus with 41 samples.

Results

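The mouse mammary tumors PLK2null_7764, PLK2null_1977, PLK2null_1980 and PLK2null_1981 formed a group of 4 of the 28 Plk2-/-; p53-/- tumors (labelled PLK2null), in a series of 41 tumors. They were chosen by the likeness of their RNA-seq profiles, that is, from the same expression values that are described here, so their differences from other tumors are given as values with no test. The comparison set was the other 21 PLK2null tumors, after PLK2null_732, PLK2null_733 and PLK2null_743 were set aside, and the 13 tumors that lacked p53 alone (labelled p53-null) are given beside it. All were untreated tumors grown by injection into the mammary gland of syngeneic BALB/c hosts. The PLK2null tumors descend from mammary epithelium of mice that lacked both Plk2 and p53 in every cell, transplanted into wild-type fat pads, and p53 was lost in both groups. The age of the hosts is not given in the sources used here. Tumors of the series were passaged from mouse to mouse, and whether the 4 share a parent tumor is not given in the sources used here. The 21 other tumors are not independent of one another: they comprise 4 families of 4 tumors grouped in the same way by their profiles and named here after PLK2null_7747, PLK2null_7749, PLK2null_7750 and PLK2null_7753, and 5 single tumors. The libraries of the p53-null group carry a separate series name, so preparation and genotype cannot be told apart.

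p53 halts division or triggers death in cells with damaged DNA, and mammary epithelium that lacks it forms tumors with many gains and losses of chromosome pieces. Where a piece of DNA is amplified, the genes on it are often raised together, whatever their function. Hox and Dlx genes encode homeodomain transcription factors that sit in tight clusters and pattern the embryo, and neighbours in a cluster often share regulation. Copy number was not measured here. Mammary epithelium has an inner luminal layer, marked by keratins 8 and 18 and claudins, and an outer basal layer, marked by keratins 5 and 14 and p63.

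For every gene or run of genes below, the values of the group are given in the order PLK2null_7764, PLK2null_1977, PLK2null_1980 and PLK2null_1981. The deposited values are expression signals scaled by the authors so that the upper quartile of each tumor is 1000. The 4 libraries held between 35421813 and 38571857 fragments, and the 21 others between 31910743 and 53245394. A value of 3 reads corresponded to a signal of 1.98 to 2.06 in the 4 tumors, and values at or under it are treated as not detected at this depth. Plk2 was low in the 4 tumors, at 83.8, 314, 468 and 474, against a median of 293 in the 21 others and 3402 in the p53-null tumors. Each of the 4 lay below the p53-null median, but PLK2null_1977, PLK2null_1980 and PLK2null_1981 lay above the lowest p53-null tumor, at 186. The epithelial markers were present: Epcam, a cell adhesion molecule of epithelium, was at 17818, 19298, 21182 and 21497 in the 4 tumors, against a median of 15372 in the 21 others.

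Several libraries stood apart in RNA of other cell types. In PLK2null_7764, the summed signal of 8 skeletal muscle markers was 3922, against 67.8 to 207 in the other 3 and 34.4 to 261 in the 21 others. Myh1, a myosin heavy chain of muscle, was listed at 0 in PLK2null_1980 and PLK2null_1981 and at 246 in PLK2null_7764. In PLK2null_1981, the summed signal of 6 B cell markers was 4993, against 14.9 to 32.3 in the other 3 and 12.9 to 576 in the 21 others. T cell markers summed to 3114 in PLK2null_1981 and adipocyte markers to 5763, against at most 337 and 570 in the other 3. The T cell sum of PLK2null_1981 was above the highest of the 21 others, 1597, but its adipocyte sum was within their range, which reached 52258 in PLK2null_7763. As the mean over the list of log2 level minus the mean of the 21 others, its adipocyte value was 4.59. That was above their highest, 3.62, so the reading depends on the measure. Among the 21 others, PLK2null_7763 was highest in endothelial markers, at 82300 against a median of 6073. All 8 muscle and all 6 B cell markers had a positive difference between the 4 tumors and the 21 others. The same held for 6567 of the 17014 tested genes. Nothing is read from these signs, which rest mainly on 1 library each. The mean log2 difference over the list was 6.23, 1.22, -0.13 and -0.13 for muscle and 0.16, -0.67, -0.05 and 6.79 for B cells. Genes were tested at a mean of at least 10 over the 25 tumors. Myh4 and Acta1, with means of 2.72 and 6.98 in the 21 others, passed only through PLK2null_7764. In bulk tissue, fewer cells of a type and less RNA per cell cannot be told apart, and the part of these cells in the results was not tested.

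The 4 tumors resembled each other unevenly. Over the most variable genes, the correlation of their profiles was 0.700 for PLK2null_1977 with PLK2null_1980, 0.670 for PLK2null_7764 with PLK2null_1977, 0.665 for PLK2null_1977 with PLK2null_1981 and 0.660 for PLK2null_7764 with PLK2null_1980. It was lower for the pairs of PLK2null_1981 with PLK2null_1980, at 0.553, and of PLK2null_1981 with PLK2null_7764, at 0.530. The closest tumors outside the group were of the family of PLK2null_7753, whose correlations with the 4 ran from 0.375 to 0.599. The correlation of PLK2null_1980 with PLK2null_1989 of that family, 0.599, was above its correlation with PLK2null_1981. The family of PLK2null_7747 was the least alike, at -0.360 to -0.226. Within the 4 other families, the correlations ran from 0.430 to 0.912. These are correlations across genes, which are not independent replicates, and they were used in choosing the group.

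Of 17014 genes tested for a difference, 42 (0.247%) were higher and 65 (0.382%) lower in the 4 tumors. A gene was counted as higher or lower when the group means differed by at least 1 on the log2(signal + 1) scale and the 4 values lay wholly above or below the 21 others. Because the tumors were chosen from these values, nothing is read from the size of the counts. The median difference over all genes was -0.14, and 6567 of the 17014 differences were positive, and single differences are best read against that shift. When the libraries were rescaled by a trimmed mean, the counts were 54 higher and 45 lower, and with quantile normalization they were 54 higher and 23 lower. Without PLK2null_7764 the count of lower genes was 126, and without PLK2null_1980 it was 100. Just inside the limit were Sirt6, Rps26 and Spry1, with differences of 1.03, 1.11 and 1.13, and Tmem181a, Wdfy2 and Dbndd1, with -1.07, -1.08 and -1.08. Just outside were Pigt, Lpcat4 and Tigd2, at 0.97, 0.96 and 0.95, and Tnrc6b and Dip2b, at -0.99 and -0.95.

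Chromosome 6 carried 16 of the 42 higher genes, 38.1% of them, and 5.35% of the tested genes. In contrast, the chromosome as a whole was not raised: the median of its genes was -0.12 in the 4 tumors on average. Many of these higher genes, though not all, fell into short runs. The steepest run lay near the start of the chromosome, around Slc25a13, Shfm1, Dlx5 and Sdhaf3. A second run covered the Hoxa cluster and the genes before it.

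The promoters of 3 genes of the first run are shown because these neighbours, which differ in function, all had a ratio of medians above 5 against the other tumors. They run from 250 bases before to 50 bases after the start in RefSeq (GRCm38.p6), 5′ to 3′ on the gene's strand, with CG pairs in capitals. Slc25a13 lies at chr6:6217124-6217423 on the minus strand, Shfm1 at chr6:6578609-6578908 on the minus strand, and Sdhaf3 at chr6:6955768-6956067 on the plus strand.
Slc25a13: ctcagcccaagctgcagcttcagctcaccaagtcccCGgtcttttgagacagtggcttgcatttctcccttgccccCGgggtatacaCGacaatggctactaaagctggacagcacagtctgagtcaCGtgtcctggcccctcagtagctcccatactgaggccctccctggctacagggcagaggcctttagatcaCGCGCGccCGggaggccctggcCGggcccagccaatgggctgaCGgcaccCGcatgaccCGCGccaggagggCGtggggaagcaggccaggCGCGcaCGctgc
Shfm1: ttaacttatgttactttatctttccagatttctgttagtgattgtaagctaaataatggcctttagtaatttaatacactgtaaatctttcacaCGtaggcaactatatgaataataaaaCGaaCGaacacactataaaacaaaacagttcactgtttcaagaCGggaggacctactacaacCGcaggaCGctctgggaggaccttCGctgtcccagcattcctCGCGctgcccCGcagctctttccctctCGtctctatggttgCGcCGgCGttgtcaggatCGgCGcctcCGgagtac
Sdhaf3: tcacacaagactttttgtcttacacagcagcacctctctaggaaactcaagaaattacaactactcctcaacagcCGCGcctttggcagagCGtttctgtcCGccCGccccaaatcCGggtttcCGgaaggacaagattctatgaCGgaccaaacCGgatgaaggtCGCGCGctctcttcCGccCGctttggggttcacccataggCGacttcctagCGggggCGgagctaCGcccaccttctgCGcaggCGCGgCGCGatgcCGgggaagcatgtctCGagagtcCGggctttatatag
The windows hold 17, 17 and 26 CG pairs, counted on 1 strand since CG reads the same on both. The median over 32851 mouse promoters of the same length is 7, and 31.4%, 31.4% and 16.9% of them hold at least as many. All 3 promoters asked for were matched, Shfm1 under its newer symbol Sem1, and no methylation was measured. Dlx5, in the same run, had no entry in the promoter set used, so its promoter is not shown.

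Shfm1 (now Sem1) encodes a small acidic protein of the proteasome lid that also binds BRCA2. Its signal was 61671, 34678, 44963 and 46110, while the 21 others ran from 1696 to 8156 with a median of 3763. The lowest of the 4 was thus more than 4 times the highest of the others, and the ratio of the medians was 12.1. The p53-null tumors ran from 3095 to 8592, also below all 4. The gene spans 6557294 to 6578663 on chromosome 6 (mm10).

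Slc25a13 encodes citrin, the mitochondrial carrier that exchanges aspartate for glutamate. Its signal was 6340, 8212, 5786 and 5723, against 338 to 1599 in the 21 others, with a median of 802. Sdhaf3 encodes an assembly factor of succinate dehydrogenase, and stood at 1597, 1031, 894 and 885 against 93.9 to 300, with a median of 179. Neither gene overlapped between the groups, and the ratios of the medians were 7.56 and 5.36. In the p53-null tumors the highest values were 1286 for Slc25a13 and 320 for Sdhaf3, within the range seen in the 21 others or just above it.

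Dlx5, a homeobox gene of limb, jaw and bone development, was nearly silent in most other tumors. It stood at 4766, 2522, 1366 and 1827, against a median of 9.33 in the 21 others and a highest value of 256, in PLK2null_1988. The family of PLK2null_7753, to which PLK2null_1988 belongs, held 169 to 256 and was next highest. Its partner Dlx6 was uneven, with 99.7 in PLK2null_7764, 21.6 in PLK2null_1977, none detected in PLK2null_1980 and 5.95 in PLK2null_1981, while PLK2null_1988 reached 189. Dlx6 was therefore not counted as higher, although its difference was 1.62.

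The tested genes on either side of this run were not counted as higher. Dync1i1, a dynein intermediate chain before Slc25a13, was at 7.56, 14.9, 6.03 and 6.61 against a median of 5.25. At signals this low, it cannot show where the run begins. Asns, the asparagine synthetase gene after Sdhaf3, was at 551, 1019, 1286 and 986 against a median of 1659, a difference of -0.84. Both overlapped the other tumors. Between them, the 5 tested genes with a position from Slc25a13 to Sdhaf3 cover 1.002 Mb. Of the 5, 4 were counted as higher, beside 0.247% of all tested genes. The stretch was chosen for these values, so nothing is read from the count. Dlx6os1, a transcript antisense to Dlx6 that could not be placed with the annotation used, was tested but not counted, at 1160, 396, 2.01 and 66.8 against at most 60.6. The median level of the 5 genes above the other tumors was 4.07, 3.24, 2.82 and 2.81 on the log2 scale, while the 21 others reached at most 1.15, in PLK2null_1988.

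**Figure D1:**
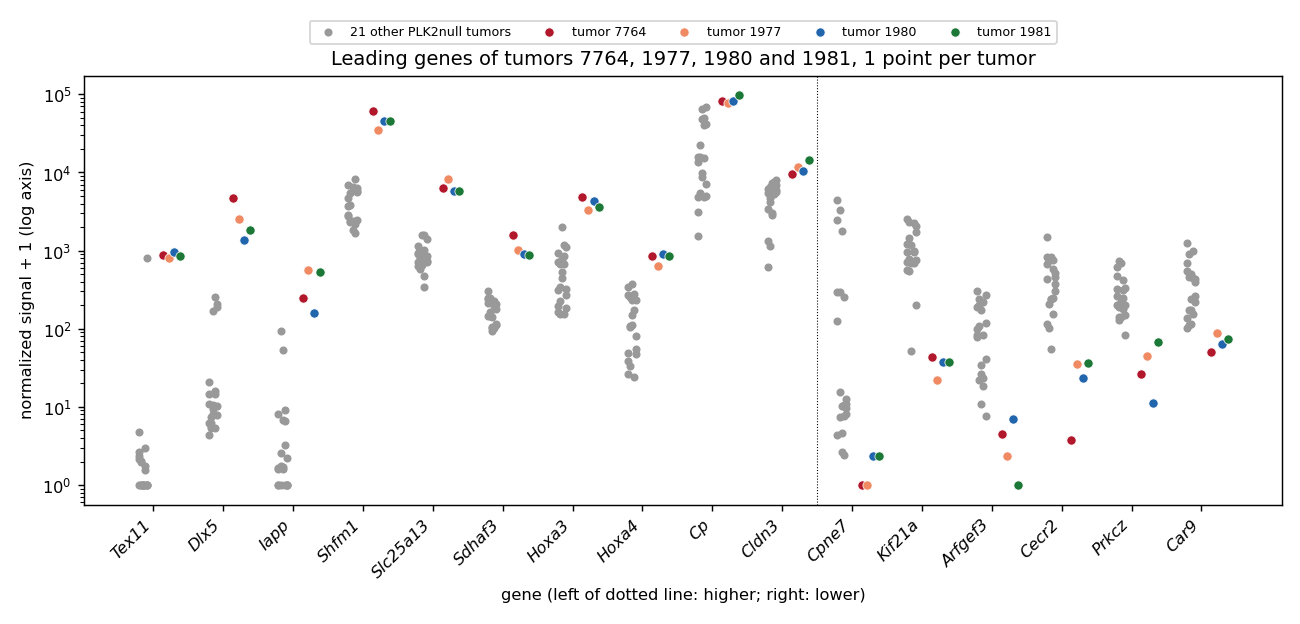
Normalized signal + 1 on a log axis for 16 genes, with 1 point per tumor; gray points are the 21 other PLK2null tumors and colored points are PLK2null_7764, PLK2null_1977, PLK2null_1980 and PLK2null_1981. Shfm1, Slc25a13 and Sdhaf3 stand above all gray points in each of the 4 tumors, Tex11 has 1 gray point at 799, and Kif21a and Cecr2 stand below all gray points.

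The second run began at Npy and ended at Znrf2, a stretch of 5.07 Mb whose ends were set after the values were seen. Of its 41 tested genes, 39 had a positive difference, 29 were past 1 and 7 were counted as higher, beside 4.74% past 1 and 0.247% counted over all tested genes. Nothing is read from this, since the stretch was chosen for these values. The median level was 1.77, 1.403, 1.63 and 1.07. The 21 others ran from -0.77 to 1.28, the highest being PLK2null_7749. The level of PLK2null_1981 was thus below that of PLK2null_7749.

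Of the Hoxa genes, Hoxa3 had the largest difference, 3.17. Its signal was 4903, 3335, 4277 and 3654, against 153 to 2012 in the 21 others, with a median of 439. In the p53-null tumors its median was 22.1. Hoxa4 was at 847, 639, 911 and 849 against at most 372. Hoxa5 was at 1500, 1212, 1610 and 1081 against at most 1044, so that the margin between PLK2null_1981 and PLK2null_7749 was small. PLK2null_7749 was the highest of the other tumors for these 3 genes.

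The neighbours inside the cluster overlapped with other tumors. Hoxa2 was at 931, 830, 1173 and 529 and Hoxa7 at 737, 742, 959 and 428, while PLK2null_7749 had 599 and 825. Hoxa9 was at 626 in PLK2null_1980 but at 46.7, 116 and 51.6 in PLK2null_7764, PLK2null_1977 and PLK2null_1981. Hoxa10 likewise was at 251 in PLK2null_1980 and at 20.6 to 35.2 in the other 3. The end of the cluster was thus high in PLK2null_1980 alone of the 4, and PLK2null_1963 had 547 and 492 for these genes. Antisense transcripts lie among the Hoxa genes and strand use is not stated, so reads of overlapping pairs such as Hoxa4 and Gm29430 cannot be told apart. The annotated Hoxa3 gene (52169062 to 52213336) also spans Hoxa4, Hoxa5 and Hoxa6, which leaves its own value uncertain.

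Before the Hoxa cluster lay genes of unrelated function. Cycs, which encodes cytochrome c, was at 7948, 5128, 7153 and 5743, against 1363 to 3866 in the 21 others, with no overlap. Nfe2l3, a bZIP transcription factor, was at 2648, 4786, 4727 and 1539 and overlapped, since PLK2null_7749 had 3783. Mpp6, a membrane scaffold protein, Dfna5 (gasdermin E), a pore-forming protein of cell death, and Osbpl3, an oxysterol-binding protein, differed by 1.81, 1.61 and 1.93 and also overlapped. The 10 genes from Npy to Cbx3 all had positive differences, beside 6567 of the 17014 tested genes, in a stretch chosen for these values.

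**Figure D2:**
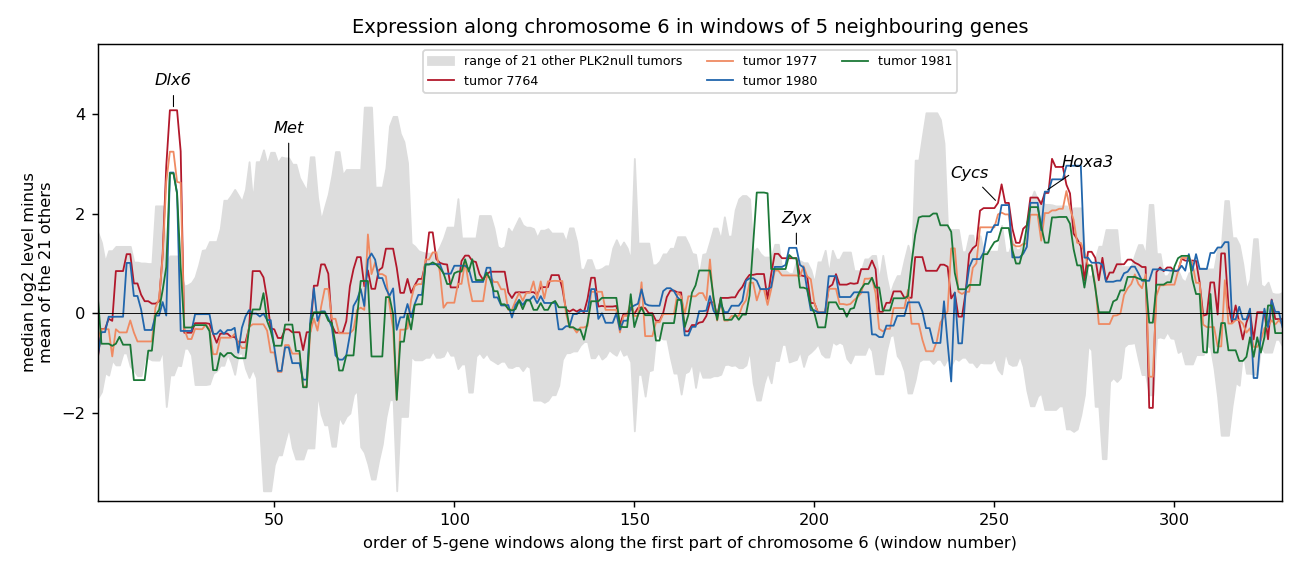
Levels in windows of 5 neighbouring tested genes along the first part of chromosome 6, in order of position; the vertical axis is the median log2 level minus the mean of the 21 others, the gray band is the range of those 21 tumors and the colored lines are the 4 tumors. All 4 lines leave the band at the window of Dlx6 and near Cycs, whereas at Met they lie inside it.

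Met, the receptor for hepatocyte growth factor, lies on the same chromosome but not in either run. Its signal was 116419, 128895, 99771 and 100053, against 419 to 203935 in the 21 others with a median of 76088. The families of PLK2null_7749 and PLK2null_7753 were higher, at 144361 to 201397 and 134498 to 203935. The p53-null tumors had a median of 2272. Met was therefore high in the 4 tumors but not separate from the others.

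The neighbours of Met, picked after the values were seen, differed less than Met did. Of 20 tested genes within 1 Mb, 7 had a positive difference, and Met was the only gene past 1, with 2.25, while the median of the 20 was -0.17. Over all tested genes, 6567 of 17014 differences were positive, 4.74% were past 1 and the median was -0.14. Nothing is therefore read from the count of neighbours. Cav1 and Cav2, which encode caveolins, differed by -0.81 and -0.57. Capza2, an actin capping protein gene next to Met, was at 15961, 11834, 10317 and 10435, above the median of the others, 5612, but its difference was -0.03 and it reached 224288 in PLK2null_7749. Tes, a focal adhesion gene before Cav2, differed by 0.64. The ratio of Met to Capza2 was 7.29, 10.9, 9.67 and 9.59, against a median of 0.822 in the 21 others. It was higher than 7.29 in 8 of those 21, so this ratio too overlapped.

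By windows of 21 neighbouring genes with a limit of 0.5, 4 stretches of the genome were raised and 7 lowered in the 4 tumors, from 0.0549% and 0.214% of windows. By windows of 5 genes with a limit of 1.5, 3 were raised and 5 lowered, from 0.0658% and 0.0479% of windows. With the trimmed mean, 7 broad stretches were raised and 1 lowered, and with quantile normalization 9 and 1, so most lowered broad stretches rest on the deposited scaling. The window rule also required that the 4 levels lie wholly outside those of the others. Without PLK2null_7764 the count of lowered broad stretches was 16, without PLK2null_1980 that of raised short stretches was 5, and without PLK2null_1981 that of lowered short stretches was 8. Of 17 changes of setting, the 19 runs were found under 7 to 17 each, where any overlap with a run of the same direction counted as found. The run from Npy to Cbx3 was found under 17 and that from Dync1i1 to Asns under 16. With every gene above 0 kept, which is among the 16, no raised short run held Slc25a13, Shfm1 and Sdhaf3 together. The run from Azi2 to Wdr48 was found under 7, from Gm26785 to Dnph1 under 8 and from Slc1a3 to Lmbrd2 under 9.

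Of the broad raised stretches, that from 5730596B20Rik to Znrf2, inside the second run on chromosome 6, was the highest, at 1.21, 0.96, 1.25 and 0.90 against at most 0.83. The other 3 were smaller in size of change. On chromosome 10, 46 genes from Plpp2 to Apc2 (79526430 to 80318263) stood at 0.51, 0.54, 0.44 and 0.57, against -0.50 to 0.37 in the others. Of these genes 41 had a positive difference, beside 6567 of the 17014 tested genes, and the stretch was chosen for its values. Among the 41 were Stk11, the kinase LKB1, with 0.61, and Gpx4, which reduces lipid peroxides, with 0.76. On chromosome 6, 21 genes from Braf to Tcaf1 (39603237 to 42710088) stood at 0.77, 0.62, 0.71 and 0.52, the last at the edge of the other tumors. Zyx, a focal adhesion protein gene in it, was at 9674, 11649, 11175 and 11275 against 1663 to 7846, and Tmem139, a membrane protein gene, at 222, 276, 242 and 206 against at most 178. Both were counted as higher, while Braf itself differed by 0.26. On chromosome 3, 22 genes from Snx16 to Hps3 (10417817 to 20035315) stood at 0.51, 0.37, 0.79 and 0.50. This stretch holds the ceruloplasmin gene and Car3 and Car2, carbonic anhydrase genes that differed by 2.48 and 0.87, and it was found under 10 of the 17 changes of setting.

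A short stretch on chromosome 2 held Ptgs1, the cyclooxygenase 1 gene, with a difference of 1.59. Its signal was 1080, 889, 1110 and 1602, and the highest of the others was 1639. The genes on either side, Mrrf and Pdcl, differed by -0.06 and -0.39, and the remaining raised genes of the stretch were predicted genes. The stretch was therefore Ptgs1 with its predicted neighbours.

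Of the lowered stretches, several held genes near the limit of detection. The short stretch on chromosome 3 with the small proline-rich genes of skin barrier, Sprr2a2, Sprr2a3 and Sprr1a, stood at -2.49 in each of the 4 tumors. That is the difference of Sprr2a2 itself, so the equal levels rest on a single gene. The signal of a single read differed among the 4 libraries, so equal levels mean that Sprr2a2 was not detected in any of them. The 21 others ran from -2.13, in PLK2null_1989, to 4.30, so the lower end of their range was close to an undetected signal. The families of PLK2null_7749, PLK2null_7753, PLK2null_7750 and PLK2null_7747 averaged -1.60, -1.30, -0.25 and 2.93. Elsewhere on the same chromosome, Fgg and Fgb, which encode fibrinogen chains, differed by -3.82 and -4.13. On chromosome 15, Slc1a3, a glutamate transporter, differed by -3.65, Lmbrd2 by -1.55 and Skp2, the subunit of a ubiquitin ligase that degrades p27, by -0.99. Lmbrd2 was at 179, 299, 230 and 159, against 424 to 1080 in the others, with no overlap. As a whole, chromosome 15 had the lowest median of any chromosome on average over the 4 tumors. It stood at -0.58, -0.32, -0.35 and -0.42, but the 21 others ran from -0.50 to 0.52. In PLK2null_1977 and PLK2null_1980, chromosomes 9 (-0.37 and -0.48) and 16 (-0.39 and -0.45) were lower than chromosome 15. On chromosome 4, 25 genes from Invs to Ikbkap stood between -0.65 and -0.60. The 21 others ran from -0.56, in PLK2null_1975, to 0.52, so the separation was narrow.

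**Figure D3:**
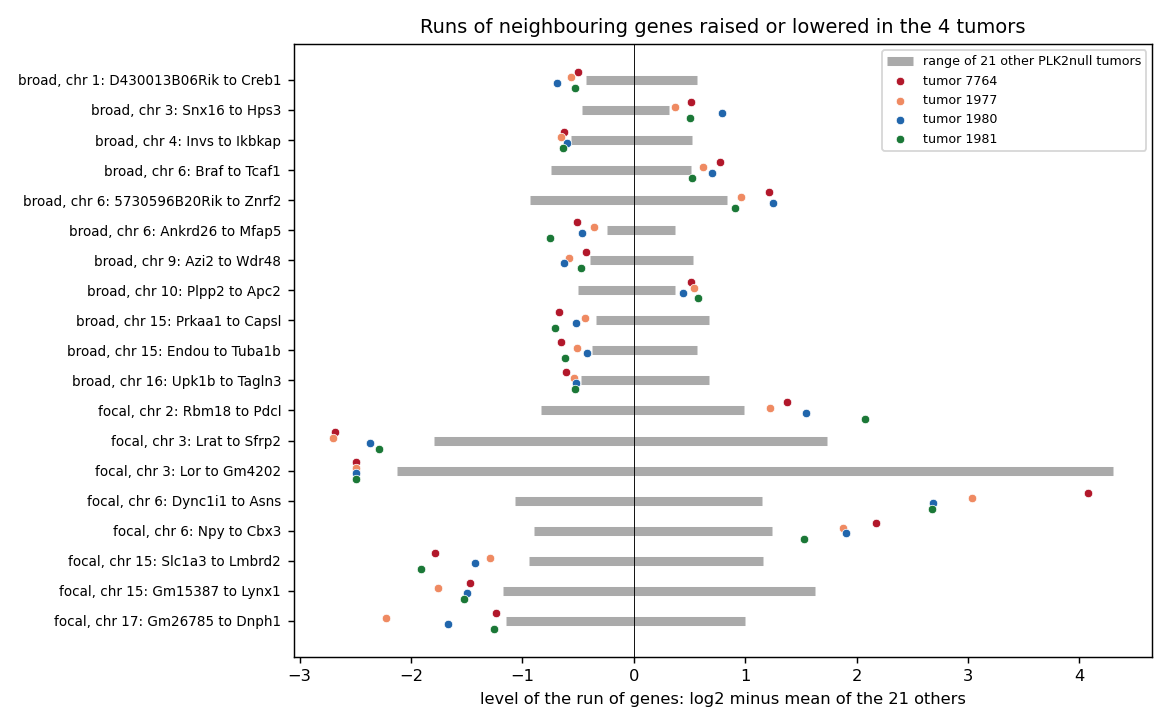
Level of each raised or lowered run of neighbouring genes, as log2 signal minus the mean of the 21 others; gray bars span the 21 other PLK2null tumors and colored points are the 4 tumors. The run from Dync1i1 to Asns lies farthest to the right, at 2.67 to 4.07, and most broad runs lie within 1 of zero.

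Away from the runs on chromosome 6, Tex11 had the largest difference of all named genes. It is a gene of the X chromosome (100838648 to 101059667) that acts in meiosis of male germ cells. Its signal was 871, 813, 971 and 858, while 18 of the 21 others were at or under 3 reads. One other tumor, PLK2null_1970, had 799, and the highest p53-null tumor had 1079. Iapp, the islet amyloid peptide gene, lies on chromosome 6 outside the runs and was at 244, 563, 157 and 533 against at most 93.2. Lipk, a lipase of skin, was at 269, 600, 144 and 401 against at most 139. For Lipk the margin between PLK2null_1980 and the highest other tumor, PLK2null_1975, was small.

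Several of the higher genes were among the abundant transcripts of the tumors. Cp encodes ceruloplasmin, the copper-carrying ferroxidase of plasma. Its signal was 82109, 77141, 82144 and 97282, against 1521 to 68309 in the 21 others with a median of 13550. The highest p53-null tumor was at 42227. The 4 tumors thus stood close together above a set that spread widely. S100a11, a calcium-binding protein gene, was at 17999, 26521, 19976 and 25261 against at most 15397. Arf5, a small GTPase gene of vesicle traffic on chromosome 6, was at 11115, 8354, 9451 and 10375 against at most 6463. Aes, a corepressor of the Groucho family, was at 12680, 13195, 14906 and 14345 against at most 11108. Rps26, a ribosomal protein gene, was at 25675, 24172, 28432 and 27530 against at most 23946, and since it has near-identical pseudogenes its value is uncertain.

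The luminal side of the epithelium was represented by Cldn3, a claudin of tight junctions. It was at 9547, 11857, 10566 and 14464, against 608 to 7950 in the 21 others, with no overlap, although p53-null tumors reached 17438. Cldn4 and Cldn7 differed by 1.39 and 1.12 and overlapped. Of the 12 luminal markers, Cldn3 was the only one counted as higher, beside 0.247% of all tested genes, none was lower and the median difference was 0.71. Keratins 8 and 18 differed by -0.40 and -0.17.

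The basal markers were split. Krt5 was at or under 3 reads in PLK2null_7764 and PLK2null_1980, at 2.80 in PLK2null_1977 and at 7.28 in PLK2null_1981, against a median of 176 and a highest value of 36680 in the 21 others. Trp63, which encodes p63, was at 99.0, 25.7, 68.3 and 27.1 against a median of 584. In contrast, Krt14 was at 3601, 4705, 402 and 1567, and Krt17 at 5065, 4623, 856 and 3870, differences of 1.33 and 1.55. None of the 12 basal markers was counted as higher or lower, since each overlapped the other tumors or differed by less than 1. The median difference of the list was -0.42. The squamous list had 9 tested genes, none counted, and a median of -1.07.

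Secreted and signaling genes were uneven. Il6, the interleukin 6 gene, was at 30.2, 15.6, 23.4 and 93.9 against at most 13.8, so it was separate but low. It was highest in PLK2null_1981, the tumor with high B and T cell markers, whose part in the value was not tested. Il6 was the 1 gene counted as higher of 22 chemokines and inflammatory signals, beside 0.247% counted as higher over all tested genes. Of the 22, 10 were past 1, beside 4.74% of all tested genes. Tgfb1, the transforming growth factor beta 1 gene, was at 3821, 3367, 3381 and 4939 against at most 2732, and was the 1 gene counted of 16 in the TGF-beta and BMP list. Spry1, an inhibitor of receptor tyrosine kinase signaling, was at 2849, 2122, 3000 and 2980 against at most 2003, and was the 1 gene counted of 17 in the Ras and MAPK list. Slc5a8, a sodium-coupled carrier of short-chain fatty acids, was at 1069, 1415, 1127 and 655 against at most 598. Lcn2, which encodes the iron-siderophore binding protein lipocalin 2, was at 99715, 126161, 171108 and 262220 and overlapped, since PLK2null_1988 had 141393.

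Genes outside the count often differed by more but varied among the 4 tumors. Bmp2, a bone morphogenetic protein gene, was at 3498 in PLK2null_7764 but 338 in PLK2null_1980, with a difference of 3.40. Clu, which encodes clusterin, differed by 3.14 and Wfdc2, a protease inhibitor gene, by 2.57. In the other direction, Bmp7 differed by -4.50, the growth factor receptor gene Fgfr2 by -3.50 and Lef1, a nuclear effector of Wnt signaling, by -2.93. Each of these overlapped the other tumors.

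Among the lower genes, Kif21a, a kinesin that moves along microtubules, was at 41.9, 20.96, 36.2 and 36.4. The 21 others ran from 50.3, in PLK2null_1987, to 2529, with a median of 961, so the separation from PLK2null_1987 was narrow. Cecr2, a bromodomain protein of chromatin remodeling on chromosome 6, was at 2.75, 34.5, 22.1 and 35.1 against 54.0 to 1485. Prkcz, the atypical protein kinase C zeta that acts in epithelial polarity, was at 25.5, 44.3, 10.1 and 65.8 against 82.0 to 740. Car9, a carbonic anhydrase induced by low oxygen, was at 48.8, 88.6, 63.6 and 72.1 against 101 to 1260. It was the 1 gene counted of 16 in the hypoxia and glycolysis list, beside 0.382% counted as lower over all tested genes. The median difference of that list was -0.52.

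Foxred2, an oxidoreductase of the endoplasmic reticulum, was at 17.2, 16.9, 23.4 and 45.6 against 62.6 to 496. Tmeff1, a transmembrane protein with follistatin-like domains, was at 176, 76.4, 90.4 and 99.2 against 212 to 1798. Rragd, a GTPase that brings mTORC1 to the lysosome, and Acvr2b, an activin receptor, differed by -3.07 and -2.27. Cpne7 was at or under 3 reads in all 4 tumors but also low in many others, with a lowest value of 1.46, a median of 9.85 and a highest of 4501. That lowest value was also under 3 reads, so the separation from it is between undetected signals. Arfgef3 was at 3.44 and 6.03 in PLK2null_7764 and PLK2null_1980 and at or under 3 reads in the other tumors of the group, against 6.57 to 305. Adamtsl3, Lonrf3 and Nwd1 differed by -3.63, -2.91 and -2.87. With a pseudocount of 10 these differences were -2.80, -2.18 and -1.20, so their size depends on low signals.

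Plk2, Plk1, Rad17, Mdm2 and Trp53 overlapped between the 4 tumors and the others. Plk2 differed by -0.09, and by 0.48 without PLK2null_7764. Plk1, which encodes the mitotic polo-like kinase, differed by 0.16, Rad17, which encodes a loader of the DNA damage clamp, by -0.05 (0.04 without PLK2null_1977), and Mdm2, the p53 ubiquitin ligase, by -0.67. Trp53 signal was present in all 4 tumors, at 2441, 2918, 3500 and 3557. Of 15 proliferation genes and 18 DNA repair genes none was counted, with median differences of -0.17 and -0.38, and of 13 p53 target genes none, with -0.18. None was counted among 27 receptor tyrosine kinases and their ligands, with a median of -0.36, or among 12 milk secretion genes, with 0.70. The fibroblast and neutrophil lists had no counted gene either, with medians of 1.05 over 10 genes and 1.33 over 7.

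**Figure D4:**
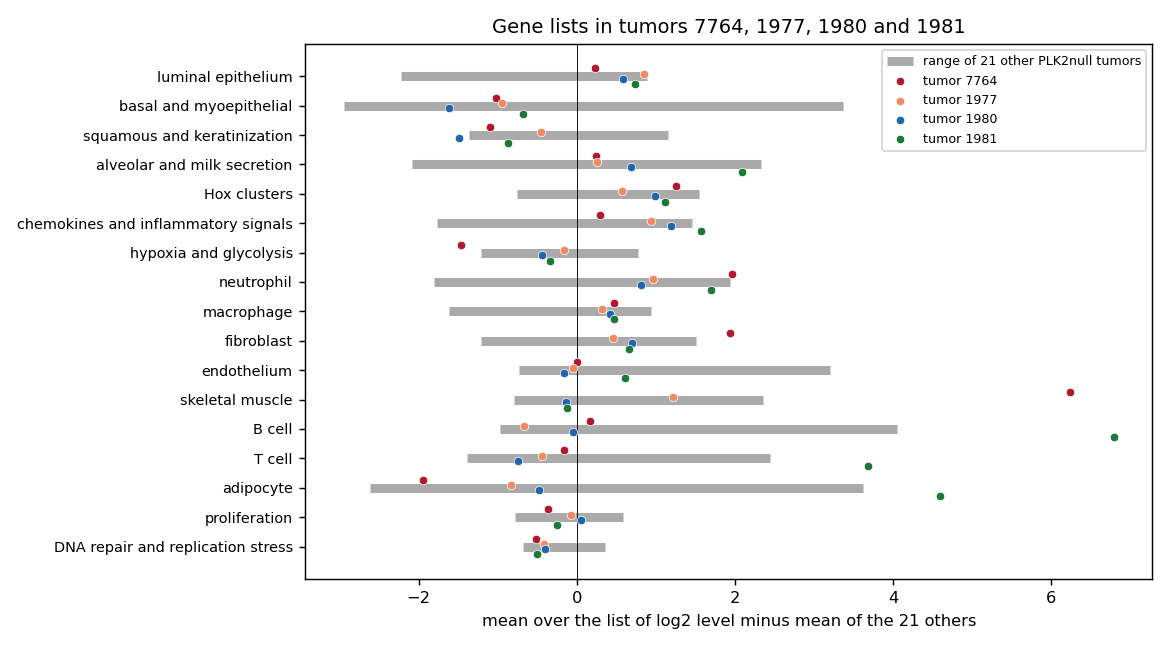
Mean over each gene list of the log2 level minus the mean of the 21 others, with a gray bar for the range of those tumors and colored points for the 4 tumors. PLK2null_7764 stands alone to the right for skeletal muscle and PLK2null_1981 for B cells, T cells and adipocytes, while the 4 points sit together for macrophages and for DNA repair.

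Within the group, PLK2null_7764 and PLK2null_1981 differed most from the other 3. In PLK2null_7764, 463 genes lay at least 1 above and 239 at least 1 below all of the other 3. Its leading genes were Myh4, Acta1 and Ckm, all of skeletal muscle, and Mcpt1, a mast cell protease. Its fibroblast markers summed to 327088 against 114394 to 132348 in the other 3, and Col1a1, a chain of type I collagen, was at 111751 against 44463 to 51968. In PLK2null_1981, 539 genes lay above and 173 below, led by Glycam1, Ighd, Ccl19, Pax5 and Cr2, of which Ighd, Pax5 and Cr2 are genes of B cells and Ccl19 is a chemokine of lymphoid tissue. Ccl19 was at 409 in PLK2null_1981 and listed at 0 in the other 3. In PLK2null_1980, 195 genes lay above and 346 below, with Nrk, Tenm3 and Usp29 in the lead, and in PLK2null_1977, 88 lay above and 212 below.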

How the data were processed

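RNA-seq (TruSeq mRNA libraries from total RNA, paired reads on HiSeq 2000/2500) was measured in 41 tumors. The submitters' processing notes name STAR 2.7.6a, Salmon 1.4.0, Picard 2.22.4, SAMtools and the mm10 build. The deposited values are a normalized signal per gene symbol, scaled by the authors to an upper quartile of 1000, for 47480 symbols, of which 51.5% of values are 0. Because the values are not counts, log2(signal + 1) was used. Genes with a mean of at least 10 over the 25 PLK2null tumors were tested for a difference (17014), and 98.7% were placed with GENCODE vM21 and older symbols from RefSeq. Depth was read from the step between low values, and 3 reads was the floor, which covers counting error only.

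The members and all gene lists were chosen with earlier results of these data known. By rule, named genes were the 15 with the largest difference in each direction, the 10 most abundant higher genes and leading genes of each run. The rules also took counted list members, a fixed set of 9 genes around Plk2, p53 and tumor subtypes and the 10 with the largest range among the 4. Further genes, such as Stk11, Gpx4, Krt14 and Krt17, met none of these rules and were picked from the runs and lists. Each tumor is 1 library, and replicate numbers follow accession order. The correlation used the most variable genes, centred on the gene median. No pair of the 4 agreed within counting noise, as a library deposited again would. Alternatives were other pseudocounts, filters, scalings, references, windows and limits, and leaving out each of the 4 tumors and PLK2null_7763. Scripts were tested on simulated data. Python 3.11.15, numpy 2.4.6, pandas 2.3.3, scipy 1.17.1 and matplotlib 3.10.9 were used. Some genes that met these rules are not reported here.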

Additional observations from a re-analysis of the deposited data

Results flagged for a closer look

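In the 4 tumors, the highest or lowest value of 10 of 169 genes or runs lay far from the other 3, by Dixon's 95% criterion for a gap relative to the whole range. Chance gives about 1 in 20 such groups, but the share here, 5.92%, cannot be set against it, since some of the genes were named for their range among the 4. The value of PLK2null_1981 stood alone for 5 genes of lymphocytes or lymph node: Cd79a at 2625, Ighd at 2579, Cr2 at 995, Pax5 at 810 and Glycam1, also a milk gene, at 7028. The value of PLK2null_7764 stood alone for Msantd3 at 119, B4galnt3 at 13.1 and Lrat, which esterifies retinol, at 137. Spry1 was lowest in PLK2null_1977, at 2122. Olfr284 was at 2.01 in PLK2null_1980, no more than 3 reads, and at 0 in the other 3. The summed B cell markers were 4993 in PLK2null_1981, and the part of these cells in the values was not tested.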

How the results depend on the processing

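Of 158 values that summarize a comparison under other settings, 104 stayed close to the reported ones, 52 moved and 2 changed sign. With the mean of family means, 131 genes were higher and 263 lower, with 8 broad runs raised and 34 lowered and 7 short runs raised and 12 lowered. Against the p53-null tumors, 643 genes were higher and 558 lower, with 31 and 22 broad and 38 and 21 short runs, and chromosome 6 changed sign to 0.14 while chromosome 16 was at -0.021. With a trimmed mean, 7 broad runs were raised and 1 lowered, 2 short runs were lowered, and the medians of chromosomes 6 and 15 were -0.0054 and -0.30. With quantile normalization, 23 genes were lower, 9 broad runs were raised and 1 lowered, 3 short runs were lowered, and chromosome 6 changed sign to 0.026. The all-gene median was -0.02 with the trimmed mean and -0.0035 with quantile normalization. With a mean of at least 100, 30 genes were lower, 1 broad run was raised and 3 lowered, and 0 short runs were lowered. With every gene above 0, 0 short runs were lowered, and with a pseudocount of 10, 1 was. A difference of at least 2 left 20 higher and 22 lower genes, and no overlap alone gave 65 and 139. Windows of 11 genes gave 10 broad runs raised and 20 lowered, and windows of 41 gave 2 and 3. A limit of 0.3 gave 12 lowered broad runs, and a limit of 1 gave 1 raised and 0 lowered. Windows of 3 genes gave 6 raised short runs and windows of 9 gave 1 raised and 1 lowered, while a limit of 1.0 gave 6 and 8 and a limit of 2 gave 2 lowered. Over 500 genes, the mean correlation was 0.746 and the highest with another tumor 0.719. When each of the 4 tumors and PLK2null_7763 were left out in turn (the other 20 tumors were not), 44 to 59 genes were higher and 71 to 126 lower (94 to 126 with 1 of the 4 left out), with 3 to 5 broad runs raised, 9 to 16 broad lowered, 3 to 5 short raised and 5 to 8 short lowered, and fewer tumors make the rule of no overlap easier to meet. Chromosome 6 then ran from -0.16 to -0.095, chromosome 9 from -0.35 to -0.23, chromosome 15 from -0.45 to -0.37 and chromosome 16 from -0.35 to -0.24. Of 423 values for single genes, 60 moved, and 8 changed sign, all of Plk2 and Rad17, which were not counted as higher or lower. Plk2 was at 0.028 with the trimmed mean, 0.042 with quantile normalization and 0.059 with family means, and Rad17 at 0.072 and 0.065 with these 2 scalings and 0.36 against the p53-null tumors. The cause of the other changes was not tested. Low values near 3 reads limit the lowered runs. No paired analysis was possible because the result comes from no test and replicate numbers follow accession order.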
